A study of Mus musculus with 12 samples.

Results

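Wnt signalling was followed through 10 genes in mesenchymal stem cells from mouse fat, grown attached to a flat surface (2D) or as spheroids (3D). The 3 ligands were Wnt9a (ENSMUSG00000000126), Wnt5a (ENSMUSG00000021994) and Wnt5b (ENSMUSG00000030170). The 3 secreted antagonists were Sfrp1 (ENSMUSG00000031548), Sfrp2 (ENSMUSG00000027996) and Dkk3 (ENSMUSG00000030772). Ctnnb1 (ENSMUSG00000006932) encodes the effector, and the 3 target genes were Axin2 (ENSMUSG00000000142), Lef1 (ENSMUSG00000027985) and Ccn4, formerly Wisp1 (ENSMUSG00000005124). All 10 were among the 56748 gene IDs of the deposited count table, and all 10 passed the filter on low counts that left 14338 genes for testing. Axin2 passed it only through the 3D libraries at 24 h, so its comparisons with that group are given as a description. Counts of called or not overlapping genes and medians that hold Axin2 are not support. The 10 genes were chosen by pathway role, with no cut-off on any value, but with the CPM levels and log2 fold changes of these 12 libraries known from earlier work on them. The levels and tests below therefore describe these genes and give no independent support for a pattern among them. Gene names are those given with the Ensembl IDs in the list of genes. The deposited tables hold IDs only.

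Wnt proteins are secreted, lipid-modified ligands that bind Frizzled receptors and their co-receptors. In the canonical branch, receptor engagement stops a destruction complex from degrading β-catenin, which then acts with TCF/LEF factors on target genes in the nucleus. Other branches, of which Wnt5a is the best known ligand, act without β-catenin. In mesenchymal stromal cells the pathway is known for its part in the choice between the bone and fat lineages.

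The series held 4 groups of 3 libraries, 2D and 3D culture at 0 h and at 24 h. Per the labels, all groups were isolated from mouse fat and kept in serum-containing DMEM with antibiotics, and the labels name no genetic change or drug. The labels do not give the mouse strain, the donors, how long spheroids had formed at 0 h, or whether replicates were separate cultures. The p-values therefore rest on a spread between libraries that may be technical. Library totals lay between 10182590 and 17109609 expected counts. Markers of mesenchymal and of other cell types were not analysed here, because gene symbols other than those of the 10 genes could not be matched to IDs. In such bulk samples, fewer cells of a type and less RNA per cell cannot be told apart.

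Levels of 1 gene across groups are given in CPM (counts-per-million values), scaled by TMM, in the order of replicates 1, 2 and 3, and levels of different genes are compared only in TPM (transcripts-per-million values), which allow for gene length. A gene was called at an edgeR quasi-likelihood adjusted p under 0.05, adjusted over all 14338 genes. In spheroids against 2D cells at 0 h, 6 of the 10 genes were called, 3 higher and 3 lower, where 45.8% of all genes tested were called, 23.1% higher and 22.7% lower. At 24 h, 9 of 10 were called, 5 higher and 4 lower, against 42.5% of all genes, 19.6% higher and 22.8% lower. The CPM of the groups did not overlap for 7 of the 10 genes at 0 h and for all 10 at 24 h, against 54.4% and 52.9% of all genes. In absolute size, the median log2 fold change of the 10 was 0.54 at 0 h and 1.55 at 24 h. Over all genes it was 0.50 and 0.46. The values of the 10 at 24 h hold Axin2 and describe genes chosen with their changes known.

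**Figure D1:**
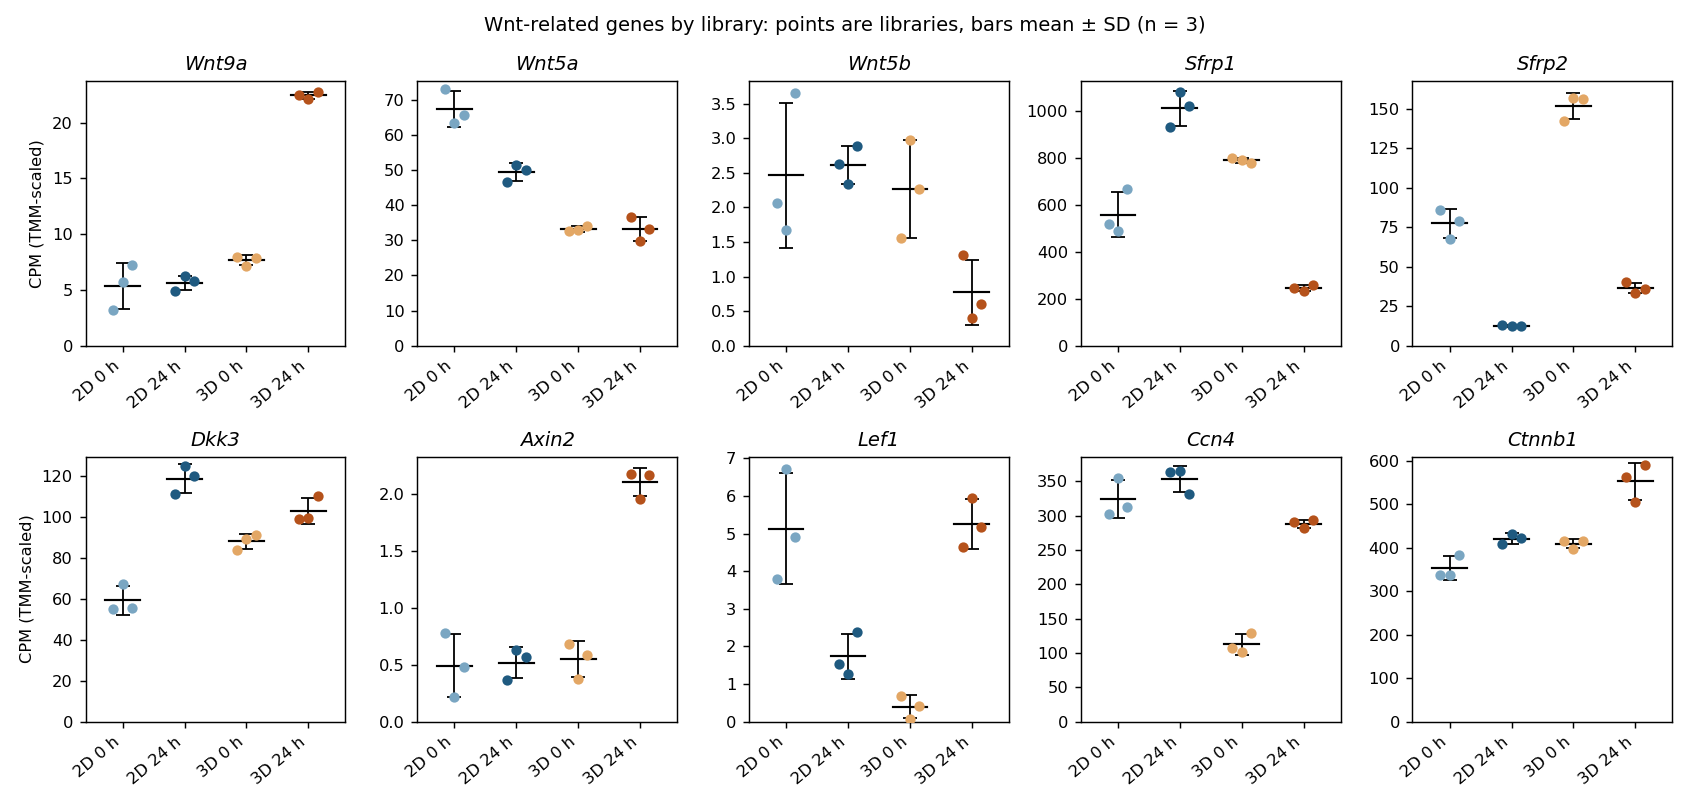
CPM (TMM-scaled, linear axis from 0) of the 10 genes by group, with 1 point for each library, a long line for the mean and bars for the SD (n = 3). Wnt9a and Axin2 stand highest in the 3 spheroid libraries at 24 h, where Sfrp1 stands lowest, and Lef1 and Ccn4 stand lowest in spheroids at 0 h.

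Among the ligands, Wnt9a was set apart by spheroids at 24 h. In attached cells it stood at 3.18, 5.69 and 7.24 CPM at 0 h and at 4.9, 6.21 and 5.77 CPM at 24 h. Spheroids had 7.99, 7.14 and 7.89 CPM at 0 h and 22.5, 22.1 and 22.7 CPM at 24 h. The 3 spheroid libraries at 24 h lay above all other libraries, while the 2D and 3D libraries at 0 h overlapped. Wnt9a was 3.98-fold higher in 3D at 24 h (log2 fold change 1.99 ± 0.23, SE, with an edgeR adjusted p of 2.1e-06). At 0 h its log2 fold change was 0.50 ± 0.24 and was not called (edgeR adjusted p = 0.095, range over alternatives 0.012 to 0.36). It was called at 0 h without 2D 0 h replicate 3 (log2 fold change 0.81, edgeR adjusted p = 0.012) and with upper-quartile scaling (0.61, edgeR adjusted p = 0.046). Within 3D it rose 2.93-fold over 24 h (log2 fold change 1.55 ± 0.23 (SE), edgeR adjusted p = 2.6e-05). Within 2D the value over the same time was 0.06 ± 0.24 and was not called.

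Wnt9a, Axin2 and Lef1 all stood higher in spheroids at 24 h than at 0 h. The RefSeq start-site windows of these genes (build GRCm38.p6) are shown where the genes are described, with that of Sfrp2, which fell. The files themselves use GRCm39. Each window runs 5′ to 3′ on the gene's strand, from 250 bases before to 50 bases after an annotated start, and capitals mark GGGCGG on either strand, the GC-box word. Windows were found for 6 of the 10 genes, 12 windows in all, and GGGCGG was in 9 of them, against 35.7% of 32841 RefSeq windows of that length. Lef1 windows 1 and 2 overlapped and held the same GGGCGG. The windows of Ctnnb1 also overlapped and shared some of theirs, so the 9 windows are not separate cases. Among windows not printed in full, those of Wnt5b, which fell in 3D, held 3, 0 and 2 GGGCGG. Both windows of Ctnnb1, which rose in 3D, held 3. A link between this word and the direction of change was not tested. The Wnt9a window, chr11:59306680-59306979 on the plus strand, had 83.3% G and C, where the median of all windows was 52.7%.
Wnt9a: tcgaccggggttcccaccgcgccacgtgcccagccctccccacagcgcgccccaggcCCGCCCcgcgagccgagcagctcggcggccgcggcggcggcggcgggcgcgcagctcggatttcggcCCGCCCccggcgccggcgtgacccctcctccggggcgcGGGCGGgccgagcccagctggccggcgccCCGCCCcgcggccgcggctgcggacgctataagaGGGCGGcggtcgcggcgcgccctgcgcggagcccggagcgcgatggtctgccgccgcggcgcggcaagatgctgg

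Wnt5a, the classical ligand of the β-catenin-independent branch, had the highest mean TPM of the 3 ligands in every group and was lower in spheroids. Its level in attached cells was 73.1, 63.3 and 65.7 CPM at 0 h and 46.5, 51.4 and 50 CPM at 24 h. Its level in spheroids was 32.5, 32.9 and 34.1 CPM at 0 h and 36.7, 29.8 and 33.3 CPM at 24 h. In CPM every spheroid library lay below every attached library, and the 3D libraries of the 2 times overlapped. In TPM the cultures overlapped at 24 h, from 14.1 to 17.8 TPM in 2D and from 11.5 to 15.9 TPM in 3D. Attached cells at 24 h and spheroids at 0 h also overlapped, both with a mean of 16.4 TPM. Wnt5a was 2.03-fold lower in 3D at 0 h (log2 fold change -1.02 ± 0.12 (SE), edgeR adjusted p = 1.9e-06). At 24 h it was 1.48-fold lower (log2 fold change -0.57 ± 0.12 (SE), edgeR adjusted p = 0.00077). In 2D it fell 1.37-fold over 24 h (edgeR adjusted p = 0.0063), and in 3D its log2 fold change was 0.00 ± 0.12. The difference at 24 h was not called with limma on the deposited log2(TPM + 1) values, where the log2 fold change was -0.28 (adjusted p = 0.26, range over alternatives 4.8e-05 to 0.26). With the same test the log2 fold change at 0 h was -0.64 (adjusted p = 0.012).

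Wnt5b, a close relative of Wnt5a, was rare in all groups and lowest in spheroids at 24 h. Attached cells had 2.06, 1.68 and 3.66 CPM at 0 h, and 2.63, 2.34 and 2.89 CPM a day later. The spheroid libraries read 1.56, 2.97 and 2.27 CPM at 0 h, and 1.31, 0.408 and 0.598 CPM a day later, which rest on 24, 5 and 8 counts. In CPM the 3D libraries at 24 h lay below all others, and the other groups overlapped. On the TPM scale the 3D libraries of the 2 times overlapped, from 1.09 to 2.22 TPM at 0 h and from 0.33 to 1.19 TPM at 24 h. At 24 h it was 3.26-fold lower in 3D (log2 fold change -1.70 ± 0.48 (SE), edgeR adjusted p = 0.0085). Without 3D 24 h replicate 1 the log2 fold change was -2.33. Within 3D it fell 2.83-fold over 24 h (edgeR adjusted p = 0.017, range over alternatives 0.0058 to 0.086). That call was lost without 3D 0 h replicate 2 (edgeR adjusted p = 0.086), without 3D 24 h replicate 2 (0.07) and without 3D 24 h replicate 3 (0.068), and without 3D 24 h replicate 1 the log2 fold change was -2.13.

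The make-up of the 3 ligands differed between the groups. On the TPM scale, Wnt5a held 86.3% ± 4.90 of their summed level in attached cells at 0 h (SD, n = 3). A day later its mean share there was 76.7%, with libraries from 76.7% to 76.8% (n = 3). Its share in spheroids was 74.9% ± 4.65 at 0 h and 52.2% ± 2.86 a day later (SD, n = 3). The 3 spheroid libraries at 24 h, at 54%, 53.7% and 48.9%, lay below all other libraries. In that group Wnt9a, at 11.6 ± 0.775 TPM, overlapped with Wnt5a, at 13.4 ± 2.24 TPM (SD, n = 3). In the other groups Wnt5a lay above Wnt9a in every library. The summed level of the 3 ligands overlapped between attached cells at 0 h and spheroids at 24 h, at 29.9 ± 3.02 and 25.6 ± 3.27 TPM (SD, n = 3).

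The secreted antagonists did not move as a block. Sfrp1, which binds Wnt proteins and was the most abundant antagonist in every group, changed sides between the times. Attached cells had 517, 489 and 668 CPM at 0 h, and 932, 1080 and 1020 CPM a day later. The spheroid libraries read 800, 791 and 779 CPM at 0 h, and 248, 235 and 259 CPM a day later. Spheroids lay above attached cells at 0 h and below them a day later, with no overlap at either time. It was 1.41-fold higher in 3D at 0 h (log2 fold change 0.50 ± 0.11 (SE), edgeR adjusted p = 0.0012). At 24 h it was 4.09-fold lower (log2 fold change -2.03 ± 0.11 (SE), edgeR adjusted p = 2.1e-10). Over 24 h it rose 1.81-fold in 2D (edgeR adjusted p = 2.4e-05) and fell 3.19-fold in 3D (edgeR adjusted p = 2.8e-09). The 3D against 2D change at 24 h differed from that at 0 h by a log2 value of -2.53 ± 0.16 (SE; edgeR adjusted p = 2.1e-09).

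Sfrp2, of the same family, fell over 24 h in both cultures and stayed higher in spheroids. In attached cells it stood at 85.8, 67.7 and 79.1 CPM at 0 h and at 13.4, 12.5 and 12.3 CPM at 24 h. Spheroids had 142, 157 and 156 CPM at 0 h and 40.2, 33.4 and 36 CPM at 24 h. No groups overlapped. It fell 6.09-fold in 2D (log2 fold change -2.61 ± 0.13 (SE), edgeR adjusted p = 8.8e-10) and 4.15-fold in 3D (log2 fold change -2.05 ± 0.12 (SE), edgeR adjusted p = 4.8e-10). It was 1.96-fold higher in 3D at 0 h (edgeR adjusted p = 2.9e-06) and 2.87-fold higher at 24 h (edgeR adjusted p = 3.6e-08). The fall in 2D was smaller on the authors' TPM scale, where the ratio of 24 h to 0 h was 0.248, against 0.164 in CPM. The Sfrp2 window, chr3:83766071-83766370 on the plus strand, had 66% G and C and no GGGCGG.
Sfrp2: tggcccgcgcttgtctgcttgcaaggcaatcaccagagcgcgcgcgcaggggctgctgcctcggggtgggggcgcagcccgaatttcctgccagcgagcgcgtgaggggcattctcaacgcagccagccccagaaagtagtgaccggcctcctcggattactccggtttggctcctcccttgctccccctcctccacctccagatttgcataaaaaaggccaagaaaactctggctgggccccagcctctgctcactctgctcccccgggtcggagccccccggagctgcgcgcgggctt

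Dkk3, a secreted protein of the Dickkopf family that differs from its other members in its weak effect on canonical Wnt receptors, was lowest in 2D at 0 h. Its level in attached cells was 54.9, 67.1 and 55.5 CPM at 0 h and 111, 125 and 120 CPM at 24 h. Its level in spheroids was 84, 89.1 and 91.1 CPM at 0 h and 99, 99.6 and 110 CPM at 24 h. In CPM the 2D libraries lay below the 3D libraries at 0 h and just above them at 24 h. In TPM the cultures overlapped at 24 h, from 51.7 to 66.6 TPM in 2D and from 48 to 55.3 TPM in 3D. It was 1.49-fold higher in 3D at 0 h (log2 fold change 0.57 ± 0.11 (SE), edgeR adjusted p = 0.00037). At 24 h its log2 fold change was -0.21 ± 0.11 and was not called (edgeR adjusted p = 0.13). It rose 2.01-fold over 24 h in 2D (edgeR adjusted p = 4.5e-06), and in 3D its log2 fold change of 0.22 ± 0.11 was not called (edgeR adjusted p = 0.098, range over alternatives 0.033 to 0.22).

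**Figure D2:**
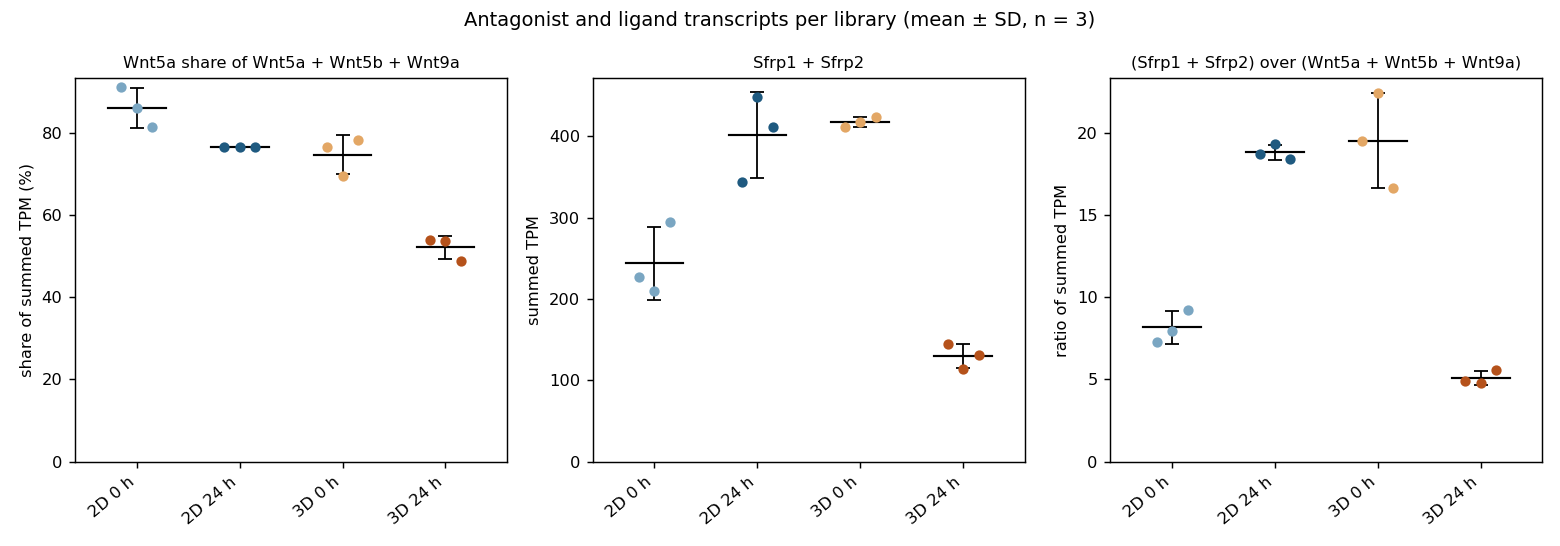
TPM sums per library (points, with mean and SD, n = 3), showing the Wnt5a share of the 3 ligands in percent, the summed level of Sfrp1 and Sfrp2, and the ratio of that sum to the summed ligands. In spheroids at 24 h all 3 quantities lie below those of every other library.

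Set against the 3 ligands, Sfrp transcripts were in lowest excess in spheroids at 24 h. Sfrp1 and Sfrp2 together stood at 244 ± 45 TPM in attached cells at 0 h and 401 ± 52.8 TPM a day later (SD, n = 3). Their sum in spheroids was 418 ± 6.03 TPM at 0 h and 130 ± 15 TPM a day later (SD, n = 3). Their ratio to the summed TPM of the 3 ligands was 8.15 ± 1.01 in attached cells at 0 h and 18.8 ± 0.458 a day later (SD, n = 3). In spheroids the ratio was 19.5 ± 2.90 at 0 h and 5.08 ± 0.441 a day later (SD, n = 3). The ratio thus lay higher in 24 h than in 0 h libraries in 2D and lower in 3D, without overlap. The ratio of Sfrp1 to Sfrp2 lay between 19.3 and 35.8 in 2D at 24 h, and between 2.08 and 3.62 in all other libraries. These sums were formed after the levels had been seen and were not tested. They leave out Dkk3, whose mean was 25.7 TPM at 0 h and 60.2 TPM at 24 h in 2D. In 3D the mean of Dkk3 was 42.1 TPM at 0 h and 52.3 TPM at 24 h.

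Ctnnb1, which encodes β-catenin, was abundant in every group and highest in spheroids at 24 h. Attached cells had 338, 337 and 384 CPM at 0 h, and 408, 432 and 422 CPM a day later. The spheroid libraries read 416, 397 and 416 CPM at 0 h, and 563, 506 and 590 CPM a day later. The spheroid libraries at 24 h lay above all others. It was 1.32-fold higher in 3D at 24 h (log2 fold change 0.40 ± 0.09 (SE), edgeR adjusted p = 0.0021), and it rose 1.35-fold over 24 h in 3D (edgeR adjusted p = 0.00095). At 0 h its log2 fold change of 0.21 ± 0.09 was not called (edgeR adjusted p = 0.068, range over alternatives 0.0083 to 0.18). It was called there under 5 of 20 alternatives, among them without 2D 0 h replicate 3 (0.32, edgeR adjusted p = 0.016). In 2D it rose 1.19-fold over 24 h (edgeR adjusted p = 0.044), a call lost under 14 of 20 alternatives (range of adjusted p 0.0018 to 0.18). Of the 12 libraries left out in turn, the call was kept only without 2D 0 h replicate 3 and without 3D 24 h replicate 2, and its log2 fold change without 2D 0 h replicate 1 was 0.21. RNA levels do not measure the amount of stable β-catenin protein.

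Of the 3 target genes, Lef1 and Ccn4 rose over 24 h in spheroids, and Axin2 had its highest counts there. Axin2, a scaffold of the destruction complex and a feedback target of canonical signalling, was rare. In attached cells it stood at 0.774, 0.219 and 0.483 CPM at 0 h and at 0.363, 0.63 and 0.563 CPM at 24 h. Spheroids had 0.682, 0.372 and 0.588 CPM at 0 h and 2.18, 1.96 and 2.17 CPM at 24 h. The 3 spheroid libraries at 24 h, with 93 counts between them, lay above all others, and each other group had 19 counts over its 3 libraries. Without the 3D libraries at 24 h, Axin2 did not pass the filter on low counts, so a difference of that group from the others is built into its being tested. As a description, the fitted log2 fold change was 1.99 ± 0.54 (SE) for 3D against 2D at 24 h and 1.94 ± 0.54 (SE) for 24 h against 0 h in 3D. With no filter on low counts these were 2.03 (edgeR adjusted p = 0.017) and 1.94 (edgeR adjusted p = 0.021). The range of adjusted p over alternatives was 0.0026 to 0.038 for the first and 0.0024 to 0.041 for the second. The other alternatives were run after such a filter, so these ranges are a description and no support. At 0 h its log2 fold change was 0.16 ± 0.60 and was not called (edgeR adjusted p = 0.85). The TPM ratio of 3D to 2D at 24 h was 2.06, against 4.05 in CPM, and limma on log2(TPM + 1) gave a log2 fold change of 0.55. For 24 h against 0 h in 3D the TPM ratio was 2.03, against 3.84 in CPM. The Axin2 window, chr11:108920099-108920398 on the plus strand, had 70% G and C.
Axin2: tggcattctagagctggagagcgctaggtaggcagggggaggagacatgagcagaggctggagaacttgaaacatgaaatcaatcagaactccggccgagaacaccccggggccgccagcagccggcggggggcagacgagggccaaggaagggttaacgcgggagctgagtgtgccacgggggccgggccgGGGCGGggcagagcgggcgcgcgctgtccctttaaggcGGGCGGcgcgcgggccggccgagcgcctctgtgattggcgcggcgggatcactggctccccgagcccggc

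Lef1, a DNA-binding partner of β-catenin and itself a target of the pathway, changed sides between the times like Sfrp1, in the opposite direction. Lef1 stood in attached cells at 3.78, 6.71 and 4.9 CPM at 0 h and at 1.54, 1.26 and 2.39 CPM at 24 h. Spheroids had 0.682, 0.0744 and 0.42 CPM at 0 h and 4.63, 5.95 and 5.16 CPM at 24 h. The values at 0 h rest on 6.55, 1 and 5 expected counts, rounded to whole numbers before scaling. Spheroids lay below attached cells at 0 h and above them a day later, without overlap. Lef1 was 13.5-fold lower in 3D at 0 h (log2 fold change -3.75 ± 0.50 (SE), edgeR adjusted p = 1.1e-05) and 2.98-fold higher at 24 h (log2 fold change 1.57 ± 0.41 (SE), edgeR adjusted p = 0.0046). It fell 2.93-fold over 24 h in 2D (edgeR adjusted p = 0.0076) and rose 13.7-fold in 3D (edgeR adjusted p = 8.9e-06). Without 3D 0 h replicate 1 the log2 fold change at 0 h was -4.36 and that over time in 3D was 4.43, with a difference between the times of 5.98. With limma on log2(TPM + 1) these were -1.80 and 1.60, on a scale that understates changes of low genes.
The Lef1 window of the first annotated start, chr3:131110047-131110346 on the plus strand, had 67.3% G and C.
Lef1: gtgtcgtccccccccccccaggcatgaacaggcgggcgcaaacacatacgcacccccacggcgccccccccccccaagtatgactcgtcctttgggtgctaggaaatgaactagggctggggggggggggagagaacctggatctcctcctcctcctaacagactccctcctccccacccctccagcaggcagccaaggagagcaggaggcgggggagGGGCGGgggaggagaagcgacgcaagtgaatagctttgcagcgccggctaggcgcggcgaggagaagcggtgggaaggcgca

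TCF/LEF factors bind short words that were searched here in 4 forms on both strands. The form CTTTGAT was in 3.73% of all RefSeq windows of this length. A form that ends in another base, CTTTGAA, was in 5.13% of these windows. Of the remaining forms, CTTTGTT was in 5.85% of all windows, and the last form searched, CTTTGTA, was in 3.63% of them. At least 1 of the 4 was in 16.9% of all windows. Of the 12 windows of these genes, 2 held 1, and the printed windows of Wnt9a, Sfrp2, Axin2 and Lef1 held none. The 2 matches are shown with the word in capitals, in stretches of 57 bases on the gene's strand. Wnt5b window 3, chr6:119449337-119449636 on the minus strand, had CTTTGAT from 71 bases before the start. Lef1 window 4, chr3:131156044-131156343 on the plus strand, had TACAAAG, which reads CTTTGTA on the other strand, from 147 bases before the start. A match describes letters only, and binding was not measured.
Wnt5b window 3: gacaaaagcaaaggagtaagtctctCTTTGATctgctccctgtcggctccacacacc
Lef1 window 4: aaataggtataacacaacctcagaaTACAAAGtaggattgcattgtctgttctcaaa

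Ccn4, a secreted matricellular protein first described as a Wnt-induced gene, was the only abundant one of the 3 targets and was lowest in spheroids at 0 h. Its level in attached cells was 303, 355 and 313 CPM at 0 h and 363, 365 and 331 CPM at 24 h. Its level in spheroids was 107, 101 and 129 CPM at 0 h and 290, 282 and 293 CPM at 24 h. The spheroid libraries at 0 h lay below all others, and those at 24 h below the 2D libraries. It was 2.88-fold lower in 3D at 0 h (log2 fold change -1.52 ± 0.11 (SE), edgeR adjusted p = 6e-09) and rose 2.56-fold over 24 h in 3D (log2 fold change 1.36 ± 0.11 (SE), edgeR adjusted p = 2.3e-08). In 2D its log2 fold change over 24 h was 0.13 ± 0.11 and was not called (edgeR adjusted p = 0.37). At 24 h it was 1.22-fold lower in 3D (log2 fold change -0.29 ± 0.11 (SE), edgeR adjusted p = 0.034), a call lost under 14 of 20 alternatives (range of adjusted p 0.022 to 0.25). Of the 12 libraries left out in turn, the call was kept only without 2D 0 h replicate 2, without 2D 24 h replicate 3 and without replicate 3 of 3D at 0 h, and its log2 fold change without 2D 24 h replicate 1 was -0.22.

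**Figure D3:**
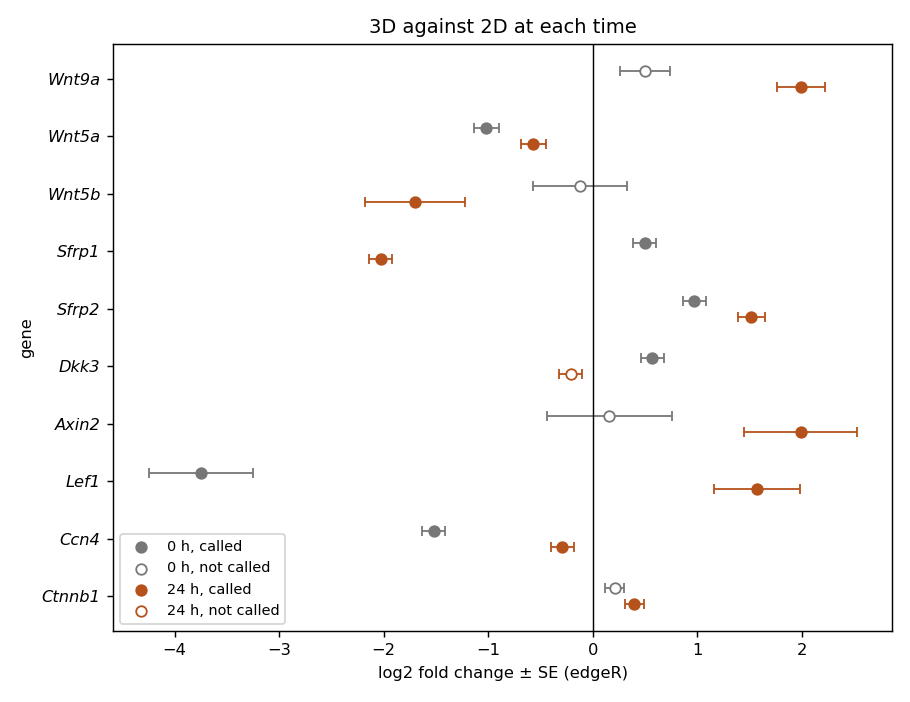
Log2 fold change of 3D against 2D (x axis, ± SE, edgeR) for the 10 genes at 0 h (grey) and 24 h (orange), with filled points for called genes. Sfrp1 lies at 0.50 and -2.03 and Lef1 at -3.75 and 1.57, on opposite sides of 0 at the 2 times.

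Over time, 6 of the 10 genes were called in 2D, 3 higher and 3 lower at 24 h, where 34.4% of all genes were called, 17.4% higher and 17% lower. In 3D, 8 of 10 were called, 5 higher and 3 lower, against 48.5% of all genes, 23.8% higher and 24.7% lower. The genes called higher in 3D at 24 h were Wnt9a, Lef1, Ccn4, Ctnnb1 and, tested only through its counts in that group, Axin2, and those that fell were Wnt5b, Sfrp1 and Sfrp2. Those that rose in 2D were Sfrp1, Dkk3 and Ctnnb1, and those that fell were Wnt5a, Sfrp2 and Lef1. Sfrp1 and Lef1 were called in both cultures in opposite directions. In absolute size, the median log2 fold change of the 10 was 0.35 in 2D and 1.53 in 3D. Over all genes it was 0.41 and 0.53. These comparisons use the same 12 libraries as those between the cultures. The groups did not overlap for 6 of the 10 genes in 2D and for 9 in 3D, where 43.1% and 60.3% of all genes did not overlap.

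**Figure D4:**
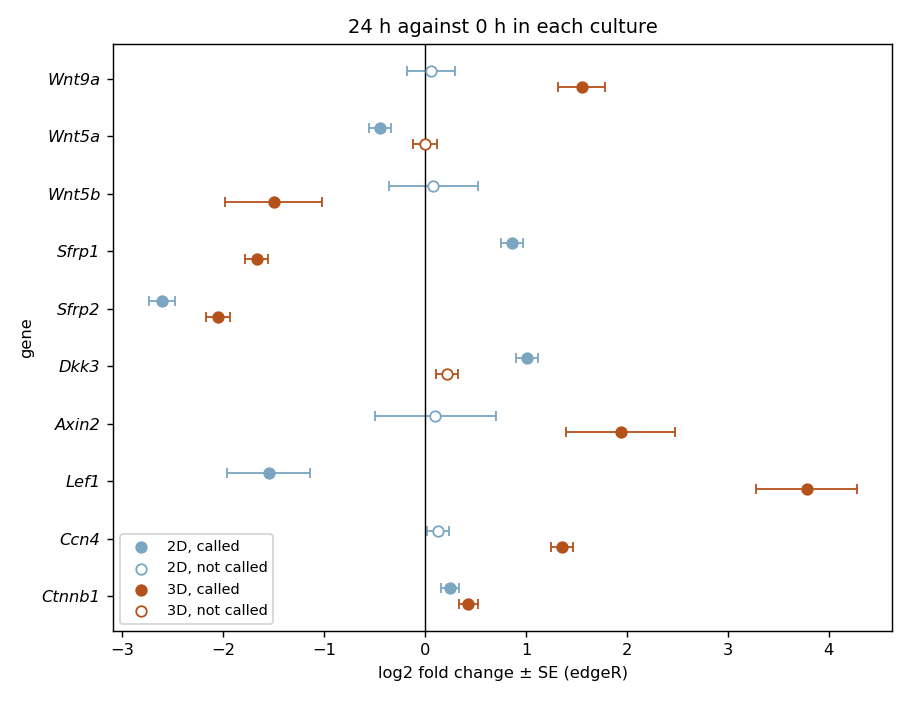
Log2 fold change of 24 h against 0 h (x axis, ± SE, edgeR) for the 10 genes in 2D (blue) and 3D (orange), with filled points for called genes. Sfrp2 lies below 0 in both cultures, at -2.61 and -2.05, while Lef1 lies at -1.55 in 2D and 3.78 in 3D.

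The test of whether the culture difference changed with time called 7 of the 10 genes, 5 with a higher and 2 with a lower value at 24 h, where 39.1% of all genes were called, 18.7% higher and 20.5% lower. Lef1 had the largest of the 10 values, 5.33 ± 0.65 (SE; edgeR adjusted p = 5.3e-06), which was 2.69 with limma on log2(TPM + 1). Ccn4 had 1.23 ± 0.15 (SE; edgeR adjusted p = 5.5e-06) and Wnt9a 1.49 ± 0.33 (SE; edgeR adjusted p = 0.0017). The difference was not called for Axin2, at 1.84 ± 0.81 (edgeR adjusted p = 0.083), for Wnt5b, at -1.59 ± 0.66 (edgeR adjusted p = 0.065), or for Ctnnb1, at 0.18 ± 0.13 (edgeR adjusted p = 0.29). Axin2 was called without 2D 0 h replicate 2 (2.19, edgeR adjusted p = 0.041, range over alternatives 0.041 to 0.45). It passed the filter on low counts only through 3D at 24 h, so these Axin2 values are a description and no support. Wnt5b was called without 2D 0 h replicate 3 (-1.99, edgeR adjusted p = 0.029) and without 3D 24 h replicate 1 (-2.19, edgeR adjusted p = 0.02, range over alternatives 0.02 to 0.17).

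The order of the 10 genes by mean TPM differed between the groups. Ctnnb1, Ccn4 and Sfrp1 held the first 3 places except in 3D at 0 h, where Sfrp2, at 132 ± 6.21 TPM, stood above Ccn4, at 83.6 ± 18.6 TPM (SD, n = 3). In 2D at 0 h the order of Ctnnb1, at 228 ± 14 TPM, Ccn4, at 220 ± 7.19 TPM, and Sfrp1, at 184 ± 40.7 TPM, was within the spread of the libraries. In 2D at 24 h Sfrp1 led at 387 ± 53.8 TPM, and in 3D at 24 h it stood after Ctnnb1 and Ccn4 at 94.8 ± 8.19 TPM (SD, n = 3). Lef1 was last in 3D at 0 h, at 0.21 ± 0.139 TPM, and in 3D at 24 h stood above Axin2 and Wnt5b, at 2.67 ± 0.237 TPM (SD, n = 3). Over all 12 libraries, the mean TPM of Ctnnb1 exceeded that of 95.8% of the genes tested, that of Sfrp1 94.4%, and that of Axin2 8.54%.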

How the data were processed

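Libraries came from a SMART-seq v4 low-input protocol and a stranded mRNA kit, per the labels' protocols. FastQC 0.11.9, STAR, RSEM and the build GRCm39 are named per the submitters' processing notes. Other versions, annotation and parameters: not given in the sources used here. Deposited values were expected counts, estimates that need not be whole, and log2(TPM + 1) values, both made by the authors. Day 0 and day 1 in the column names were read as 0 h and 24 h. Expected counts were rounded and fitted with edgeR 4.0.16 in R 4.3.3 (minimum count 10, TMM, quasi-likelihood, 1 term per group, 8 residual degrees of freedom), with 3D against 2D at each time, 24 h against 0 h in each culture, and their difference as contrasts. Alternatives used DESeq2 1.42.0, limma 3.58.1 on log2(TPM + 1), other scalings, no filter, a replicate block, the compared groups only and each library left out. Each SE of a log2 fold change was derived as its absolute value over the square root of the edgeR quasi-likelihood F statistic. The fitting script was checked on simulated counts with known changes.

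The genes and lists were chosen with earlier results of these data known, and all 10 genes are named. A wider list of Wnt pathway genes and cell type markers was not analysed here, since the tables used do not pair its symbols with IDs. Promoter windows are RefSeq's (GRCm38.p6), matched by symbol. Expected counts were not whole in all 12 libraries for Ctnnb1, in 5 for Lef1, in 3 for Wnt5a and in 2 for Sfrp2, by at most 0.45, and these genes may share reads with other places in the genome. TPM also moves with the effective length RSEM gives a gene in a library. Correlations between genes over libraries are not given, since the libraries fall into 4 groups.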

Additional observations from a re-analysis of the deposited data

Results flagged for a closer look

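The change of 3D against 2D differed between 24 h and 0 h, by the edgeR test of that difference over all genes, for 7 of the 10 genes, whose choice was made with these libraries known. On the log2 scale the difference was 1.49 for Wnt9a, 0.46 for Wnt5a and 0.55 for Sfrp2. It was 5.33 for Lef1 and 1.23 for Ccn4, and it was -2.53 for Sfrp1 and -0.78 for Dkk3. The value of Dkk3 had an edgeR adjusted p of 0.00059, that of Sfrp2 0.015 and that of Wnt5a 0.036. For Lef1, Sfrp1 and Dkk3, all 3 libraries of 3D lay on opposite sides of the 2D libraries in CPM at the 2 times. For Dkk3 the margin at 24 h was small and the change at that time was not called. The difference of Wnt5a lost its call under 12 of 19 alternatives (range of adjusted p 0.018 to 0.3), 8 of them with 1 library left out. Among the 12 libraries left out in turn, it kept the call only without replicate 2 or 3 of 2D at 0 h, or without replicate 2 of either culture at 24 h. That of Sfrp2 lost it with limma on log2(TPM + 1), where it was 0.05 (adjusted p = 0.88, range over alternatives 0.0042 to 0.88).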

How the results depend on the processing

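Of the 50 changes of the 10 genes (5 comparisons), 36 were called. Under the alternatives run, none of the 713 values of these changed sign, 30 kept their call throughout and 6 lost it under at least 1. A further 5 changes were called under at least 1 alternative. Changes of Axin2, tested only through its counts in 3D at 24 h, are among the 36, the 30 and the 5. No count here that holds Axin2 is support. The number of genes higher in 3D at 0 h went from 3 to 5 with upper-quartile scaling, by Wnt9a and Ctnnb1, and lay between 3 and 5 with 1 library left out, the 5 without 2D 0 h replicate 3. With limma on log2(TPM + 1), the number lower in 3D at 24 h went from 4 to 2, and the number with a higher difference between the times from 5 to 3. With 1 library left out, that last number lay between 4 and 6. The cause was not tested. That test also gave smaller changes for the genes of low level, -0.93 for Wnt5b at 24 h and -0.69 over time in 3D, 0.55 for Axin2 in both, and 0.89 for Lef1 at 24 h. The labels do not say that replicate numbers mark a shared batch, so the numbers were not taken as pairs in the main fit. Correlations of deviations from the group means were -0.23 to 0.05 over 12 same-numbered pairs. Such values cannot show that the libraries were unpaired. With the replicate block, 3 calls were lost: Ccn4 at 24 h (edgeR adjusted p = 0.06), Ctnnb1 over time in 2D (edgeR adjusted p = 0.063) and the difference of Wnt5a (edgeR adjusted p = 0.064). The count of genes called at 24 h was 5681 with the replicate block and 6091 without. The call of Ccn4 at 24 h was also lost with library totals (-0.17, edgeR adjusted p = 0.24). Depth limits Axin2, Wnt5b and Lef1 in spheroids at 0 h, which rest on few counts.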
